A study of Mus musculus with 13 samples.

Results

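The 5 PDGFB tumors were compared with the 3 normal brain samples, 8 of the 13 libraries of the series, over every gene of the deposited table. The samples were chosen by their labels alone, and no measured value entered the choice. A PDGFB tumor was a mouse glioblastoma started by a lentivirus that delivered PDGFB, a growth factor, together with a short hairpin RNA against p53, and its genotype label reads PDGFB-shP53. The mice were of the CNP-Cre line (Cnptm1(cre)Kan), in which the Cre recombinase is made from the oligodendrocyte gene Cnp, and the virus went into the motor cortex. Tissue marked by the fluorescent protein GFP was collected when the mice reached their end point, with 1 tumor per mouse. Normal brain tissue carried the genotype label WT, and its titles are NBT-M1, NBT-F1 and MBT-F2, named normal brain 1, 2 and 3 here. Why the third has another prefix is not given in the sources used here. A protocol says that normal tissue was cut away from marked tumor tissue under a microscope, and does not say whether that tissue is these 3 samples. The labels give no age, strain or brain region for them. Whether the normal samples came from separate animals is not stated, so the p-values measure the spread between samples, pooled over all 13 libraries with the 5 RAS tumors of the series.

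As background, PDGFB is a secreted ligand that binds receptors of the PDGF family. Its receptor PDGFRA marks oligodendrocyte precursor cells, which divide in the adult brain and give rise to the oligodendrocytes that make myelin. Signals from the receptor run through the RAS and ERK kinases and through PI3 kinase, and p53 stops the division of damaged cells. A whole piece of tissue was sequenced in each library. Fewer cells of a type and less RNA per cell therefore cannot be told apart, in any of the results that follow.

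Each of the 8 libraries had 13952738 to 15607754 reads, of which 529162 to 637560 were counted for a gene, 4.24% to 4.52% of the uniquely mapped reads. Of the counted reads, 83.9% to 85.5% stood under entries whose exons overlap an exon of a gene on the other strand, although these are 17.1% of the entries matched to the annotation. Such entries held 113.5 reads per kb of exon over the 8 libraries, against 7.81 for entries with no gene on the other strand. A gene name below is the name of an entry in the table, and the gene opposite is given where there is one. The counts lay mostly on the strand opposite to a gene, so reads under an entry may be those of the gene opposite. For a single entry this was not tested, and an entry with no annotated gene opposite may hold reads of an unannotated transcript. Levels are in CPM, the reads of an entry scaled to a fixed total of reads counted for the genes tested, with TMM factors, which balance libraries of different make-up.

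The genes of the design came first. Pdgfb (chromosome 15, 79995874 to 80014977, GRCm38, opposite an intron) had 4, 21, 5, 11 and 8 reads in PDGFB tumors 1 to 5 and 6, 3 and 4 reads in the normal samples. The groups overlapped, and the gene was too low to test. Whether a transcript of the virus would be counted there is not given in the sources used here. Trp53, the target of the hairpin, had 1, 2, 2, 2 and 2 reads in the tumors and 4, 0 and 3 in normal brain, also too few for a test. Cnp (opposite Dnajc7) had 384 to 453 reads in the tumors and 309 to 435 in normal brain, a log2 fold change of −0.19 ± 0.16 SE (adjusted p = 0.352). None of these entries checks the labels of the tumors. Pdgfra, the receptor gene (chromosome 5, 75152292 to 75198215, opposite Gm42802 and Gm42803), stood at 269.8, 271.7, 151.3, 191.6 and 170.1 CPM in the tumors and at 11.7, 15.2 and 14.9 CPM in normal brain. Every tumor was above every normal sample. The difference was 3.90 ± 0.40 on the log2 scale (SE, adjusted p = 1.81e-06). Pdgfa, a gene for another PDGF ligand (opposite 6330403L08Rik), was lower, at 24.4, 74.5, 26.0, 36.4 and 25.7 CPM against 101.6, 119.5 and 152.5 (log2 fold change −1.73 ± 0.33 SE, adjusted p = 4.69e-04).

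The table has 55416 gene entries, 7722 passed the low-count filter and were tested, and at an adjusted p under 0.05 PDGFB tumors had 1558 higher and 1940 lower genes. The share called was 45.3% of the genes tested, 20.2% higher and 25.1% lower, and each count of list members from this fit is read against these shares. Other fits have shares of their own. Among the 2948 genes tested with none on the other strand, 534 (18.1%) were higher and 672 (22.8%) lower, 40.9% in all. Among the 4469 whose exons face another exon, 977 (21.9%) were higher and 1184 (26.5%) lower, 48.4% in all. The CPM ranges of tumors and normal brain were separate for 3909 genes, a share of 50.6%, or 45.2% with no gene opposite and 54.4% with a facing exon. The balance of the directions moved with the scaling: with library totals in place of TMM factors 2045 genes were higher and 1556 lower, and the median of all genes shifted from 0.00 to 0.23 on the log2 scale. Higher genes made up 44.5% of the calls with TMM factors and 56.8% with library totals. A gene with no read in normal brain entered the test only through the tumors, and its fold is given as a lower bound set by 3 reads over the normal group.

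**Figure D1:**
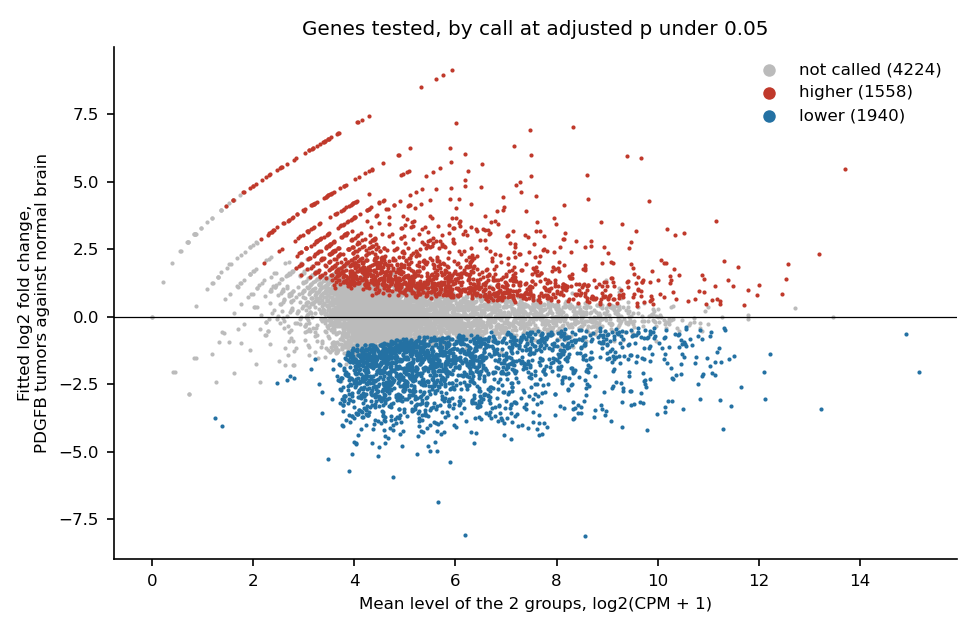
Fitted log2 fold change of PDGFB tumors against normal brain for the 7722 genes tested (vertical axis) against the mean level of the 2 groups as log2(CPM + 1) (horizontal axis, a log scale), 1 point per gene. Colored points are the 1558 genes called higher and the 1940 called lower, and the curved bands at the upper left are genes with 0 or few reads in normal brain.

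Marker genes of some of the cell types that brain tissue holds separated the groups, and those of others did not. The markers were added after their values were seen. All 7 oligodendrocyte precursor markers were higher in the tumors: Pdgfra, the proteoglycan gene Cspg4, the transcription factor genes Olig1 (opposite Gm15966), Olig2 and Sox10, the phosphatase gene Ptprz1, and Lhfpl3 (opposite A930003O13Rik). Their summed level was 808.8 to 1091 CPM in the tumors and 106.0 to 143.4 CPM in normal brain. All 8 neuron markers were lower, with sums of 61.0 to 256.6 CPM against 1642 to 1714 CPM. Of the 6 mature oligodendrocyte markers 5 were tested and 4 were lower, with sums of 125.8 to 213.8 CPM against 1139 to 1793 CPM. Cldn11, a tight junction gene of myelin, was the tested member that did not pass (log2 fold change 0.07, adjusted p = 0.930). Of the 5 astrocyte markers 2 of 4 tested were lower, and the filament gene Gfap (opposite an intron) overlapped between groups, at 70.1, 34.2, 126.9, 167.9 and 57.8 CPM against 64.5, 45.6 and 24.2 CPM. The 7 microglia and macrophage markers summed to 264.0 to 354.7 CPM in the tumors and 415.1 to 433.3 CPM in normal brain, and 1 of 4 tested, Csf1r, was lower. Most of the sum lay in Csf1r and Cx3cr1, both opposite an exon. C1qa and C1qb, complement genes with none opposite, had positive log2 fold changes that did not pass (1.09 and 1.03, adjusted p = 0.0521 and 0.0748). Endothelial markers were near 0 in both groups, at 3.17 to 27.7 CPM against 5.58 to 17.6 CPM, and none was tested. The choroid plexus markers stood at 0 to 3.11 CPM in the tumors and 55.8 to 156.3 CPM in normal brain. The neutrophil markers had no read in any of the 8 libraries, and the T cell markers summed to at most 4.35 CPM in any library.

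**Figure D2:**
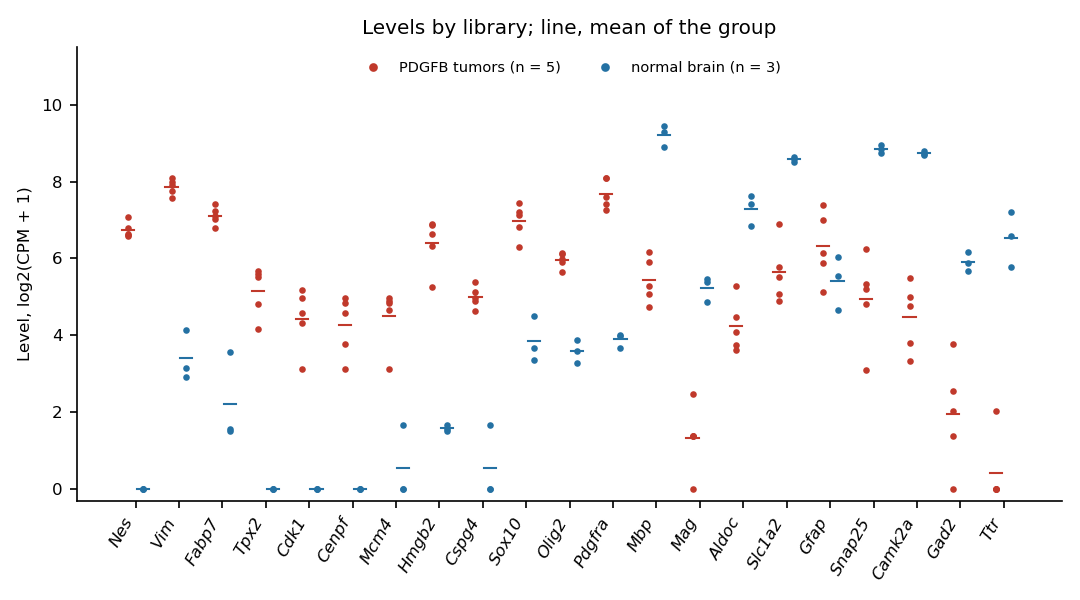
Level of 21 genes in each library as log2(CPM + 1) on the vertical axis, with PDGFB tumors (n = 5) and normal brain (n = 3) as points and the mean of each group as a line. Nes, Tpx2, Cdk1 and Cenpf had no read in normal brain, Mbp and Camk2a were lower in every tumor than in every normal sample, and Gfap overlapped.

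Many genes of cell division were higher in the tumors. Of 45 genes of the mitotic spindle and kinetochore, which pull the chromosomes apart, 17 passed the filter and 10 were higher, 0 lower and 7 not past the threshold, with a median log2 fold change of 1.5 against 0.00 for all genes tested. Where this or another list below had 0 calls in a direction by edgeR, an unadjusted p under 0.05 gave 0 as well, other than 1 myelin gene that was higher, limma-voom gave 0, and DESeq2 gave 0 other than 1 nucleotide synthesis gene that was lower. Among the 9 members with no gene on the other strand 5 were higher (median 1.52). Members with no read in normal brain passed the filter only through the tumors and could not be called lower. This holds for the cyclin and replication lists below as well. With such members set at their bound, the medians of the spindle, cyclin and replication lists stayed at 1.5, 1.76 and 2.05. A bound that lies above the median cannot move it. These medians therefore say nothing about how far entry through the tumors raised them. Tpx2, which builds the spindle, stood at 47.3, 17.1, 50.4, 26.9 and 44.9 CPM in PDGFB tumors 1 to 5 and had no read in normal brain, at least 18.7-fold higher (adjusted p = 8.62e-05). Cenpf, a kinetochore protein gene, stood at 22.9, 7.76, 27.7, 12.7 and 30.5 CPM and Aspm, which acts at the spindle poles, at 12.2, 17.1, 17.9, 15.8 and 17.7 CPM. Neither had a read in normal brain, and they were at least 10.2-fold and 8.10-fold higher (adjusted p = 2.78e-04 and 1.35e-04). Kif11, a spindle motor, had a count ratio of 29.5 with a 95% counting interval of 5.11 to 1185 (adjusted p = 0.00247). Tumor 2 was the lowest of the 5 for Tpx2, Cenpf and Kif11, and still above every normal sample.

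The 28 spindle and kinetochore genes below the filter were not tested in this fit, and with no low-count filter 29 of the 45 were higher (24 by DESeq2). Over all genes 1950 of 23301 were higher with no low-count filter, and 1599 of the 55416 entries by DESeq2. Together the 28 genes below the filter had 743 reads in the 5 tumors and 72 in the 3 normal samples. Of these genes, 18 had reads in tumors and none in normal brain. Some are named here, picked after their values were seen, each with 0 reads in normal brain. The checkpoint kinase gene Bub1b had 44 reads in the tumors and the cytokinesis gene Ect2 had 46. The motor genes Kif18a (opposite an exon) and Cenpe had 42 and 36. Exceptions were Cit with 28 reads in each group and Plk1, with 22 reads in the tumors and 21 in normal brain. Summed over all 45 members, the level was 1451, 841.6, 1420, 1147 and 1322 CPM in PDGFB tumors 1 to 5 and 599.9, 484.6 and 634.1 CPM in normal brain. Tumors and normal samples were separate, and tumor 2 lay nearest to normal brain.

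Some of the largest differences were at entries that lie opposite a gene of cell division. Gm44985, opposite the mitotic kinase gene Plk1, stood at 373.5, 149.1, 343.2, 213.8 and 332.2 CPM in the tumors and at 3.91, 0 and 5.58 CPM in normal brain, a log2 fold change of 6.33 ± 0.52 SE (adjusted p = 1.64e-07). Plk1 itself had 1 to 9 reads per tumor and 3 to 12 per normal sample. Gm14024, opposite Ckap2l, a gene of the spindle, stood at 457.3, 149.1, 401.8, 278.8 and 463.8 CPM against 1.95, 4.35 and 1.86 CPM (log2 fold change 6.93 ± 0.57 SE). Rccd1, opposite Prc1, whose protein bundles the microtubules between separating chromosomes, had 2128, 669.3, 1861, 1380 and 2017 CPM against 46.9, 15.2 and 18.6 CPM (5.88 ± 0.44). Exosc9, opposite the cyclin A gene Ccna2, had 1598, 633.6, 1711, 1139 and 1515 CPM against 15.6, 17.4 and 29.8 CPM (5.95 ± 0.39). In each of these 4 entries tumor 2 was lowest and tumor 4 next. On the entries of the division genes themselves the log2 fold change was 4.12 ± 0.70 for Ckap2l, 1.17 ± 0.42 for Prc1 (adjusted p = 0.0287, with overlapping groups, and not called without PDGFB tumor 5 or normal brain 1 or 2 or against a minimum of 1.5-fold) and 0.36 ± 0.19 for Ccna2 (adjusted p = 0.129, not past the threshold). Ccna2 was called higher with library totals and with TMM factors set before the low-count filter. It was also called higher without RAS tumor 2 and in a fit of the 8 libraries alone (lowest adjusted p over these 4 fits 0.0125).

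Promoters of spindle genes share short elements, and 3 are shown because their genes, or the entry opposite, were higher together. The CHR element, TTTGAA or TTCAAA on the other strand, and the CCAAT box, CCAAT or ATTGG on the other strand, are known from promoters of genes that are switched on late in the cell cycle. Sequences are from RefSeq (GRCm38.p6), 250 bases before to 50 after the start of the gene, and run 5′ to 3′ on its strand with both elements in capitals. Plk1 lies at chr7:122159185-122159484 on the plus strand, Cdk1 at chr10:69352863-69353162 on the minus strand and Cenpf at chr1:189688037-189688336 on the minus strand.
Plk1: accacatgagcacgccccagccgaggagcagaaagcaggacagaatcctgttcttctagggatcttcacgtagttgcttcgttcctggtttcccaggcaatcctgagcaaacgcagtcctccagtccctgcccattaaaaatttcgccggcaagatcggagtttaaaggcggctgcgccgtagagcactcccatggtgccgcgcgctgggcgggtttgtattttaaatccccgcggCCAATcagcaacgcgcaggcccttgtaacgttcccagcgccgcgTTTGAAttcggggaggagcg
Cdk1: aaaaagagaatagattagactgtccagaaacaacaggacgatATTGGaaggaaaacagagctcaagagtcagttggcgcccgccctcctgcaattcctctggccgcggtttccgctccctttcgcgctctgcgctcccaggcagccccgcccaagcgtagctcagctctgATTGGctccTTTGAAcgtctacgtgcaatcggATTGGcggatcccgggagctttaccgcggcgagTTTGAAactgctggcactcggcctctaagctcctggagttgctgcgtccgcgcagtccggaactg
Cenpf: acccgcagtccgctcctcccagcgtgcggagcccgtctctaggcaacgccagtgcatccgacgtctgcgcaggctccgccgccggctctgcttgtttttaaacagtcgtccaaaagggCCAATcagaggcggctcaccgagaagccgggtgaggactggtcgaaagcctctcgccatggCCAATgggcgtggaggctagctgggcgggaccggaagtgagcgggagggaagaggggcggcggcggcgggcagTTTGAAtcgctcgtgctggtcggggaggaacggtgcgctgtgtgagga
Plk1 held 1 CHR and 1 CCAAT match, Cdk1 held 2 and 3, and Cenpf held 1 and 2. Of the 40 spindle and kinetochore genes with a promoter in the table, 72.5% held a CHR match, 67.5% a CCAAT match and 57.5% both. Of the 25 genes of the cyclin list with a promoter, to which Cdk1 belongs, 7 held a CHR match, 13 a CCAAT match and 5 both, and of 35 in the replication list 14.3%, 65.7% and 11.4% did. Over all 27025 genes with such a promoter the shares were 18.1%, 37.9% and 7.12%, and over the 5156 of them that were tested 11.7%, 37.6% and 4.97%. A match is a string of letters in this window and no evidence of binding.

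Cyclins, their kinases and the E2F and Rb genes, which decide whether a cell divides, had 14 of 35 members tested, with 10 higher, 0 lower and a median of 1.76. Cdk1, the mitotic kinase (adjusted p = 1.74e-04), stood at 30.5, 7.76, 22.8, 19.0 and 35.3 CPM with no read in normal brain, at least 11.6-fold higher. Its partner gene Ccnb1 had a count ratio of 31.4 (95% counting interval 5.45 to 1260, adjusted p = 2.70e-04). Cdkn2a, the locus of the inhibitors p16 and ARF, was higher as well, at 32.0, 15.5, 27.7, 22.2 and 22.5 CPM with no read in normal brain, at least 12.1-fold (adjusted p = 3.30e-05), and its neighbor Cdkn2b had 42 reads in the tumors and 1 in normal brain (adjusted p = 9.34e-04). The highest mean level of any tested entry in the tumors was at LTO1, opposite the cyclin D1 gene Ccnd1, with 28340, 17960, 29570, 25570 and 29900 CPM against 664.4, 575.9 and 518.8 CPM. That is a 44.8-fold difference (log2 fold change 5.48 ± 0.24 SE, adjusted p = 1.26e-10). The entry Ccnd1 itself stood at 474.1, 364.9, 551.4, 448.2 and 454.2 CPM against 78.2, 73.9 and 76.2 CPM, a log2 fold change of 2.59 ± 0.20.

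Many genes that copy and package DNA were also higher. Of the DNA replication and licensing list 18 of 44 members were tested, with 10 higher, 0 lower and a median of 2.05, and 9 of the 11 with no gene on the other strand were higher. With no low-count filter 19 were higher, in a fit where 1950 of all 23301 genes were higher. The helicase genes Mcm2 and Mcm3, which open the DNA, and Gmnn, which limits licensing to once per cycle, had no read in normal brain and were at least 9.69-fold, 9.84-fold and 7.94-fold higher (adjusted p = 3.76e-04, 1.76e-04 and 5.47e-04). Mcm4 stood at 30.5, 7.76, 27.7, 28.5 and 24.1 CPM against 0, 2.17 and 0 CPM. The summed level of the whole list did not show this, at 2787 to 3218 CPM in the tumors and 2715 to 2884 CPM in normal brain. That sum includes members with a gene on the other strand, and the members with none were not summed apart. Nucleotide synthesis had 6 of 15 tested members higher and 0 lower (median 1.03). They included both subunits of ribonucleotide reductase, Rrm1 (43.9 ± 19.3 CPM, SD, n = 5, against 5.29 ± 2.21, SD, n = 3, adjusted p = 4.70e-04) and Rrm2 (26.6 ± 12.1 against 2.07 ± 2.18 CPM, adjusted p = 4.61e-04).

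Chromatin assembly, DNA methylation and polycomb genes had 21 of 32 tested members higher and 2 lower (41 in the list, median 1.32). Hmgb2, a chromatin protein of dividing cells, stood at 99.1, 37.3, 117.1, 115.6 and 78.6 CPM in the tumors and 1.95, 2.17 and 1.86 CPM in normal brain (count ratio 44.9, 95% counting interval 15.2 to 219.2, adjusted p = 9.76e-06). Uhrf1, which keeps DNA methylation through replication, had no read in normal brain and was at least 8.10-fold higher, with tumor 2 at 3.11 CPM and the others at 17.4 to 21.3 CPM. The chromatin remodeler gene Chd7 and the nuclear lamin gene Lmnb1 had count ratios of 29.5 and 14.3 (95% counting intervals 5.11 to 1185 and 4.74 to 70.6). Repair genes of homologous recombination and the Fanconi pathway were mixed, with 6 of 11 tested higher and 2 lower. Topbp1, the member with no gene on the other strand, was 3.93-fold higher (adjusted p = 0.0193), a call that ended without PDGFB tumor 1, without normal brain 2 and in limma-voom (adjusted p up to 0.0682). One of the lower members was Brca2 (opposite Gm42529), at 16.1 ± 7.09 CPM (SD, n = 5) against 101.7 ± 20.4 CPM (SD, n = 3). At 1700006J14Rik, opposite Hmga2, an embryonic chromatin gene, the tumors had 132.6, 80.8, 146.4, 117.2 and 123.6 CPM and normal brain had no read, at least 60.3-fold higher, and Hmga2 itself was higher with no read in normal brain.

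**Figure D3:**
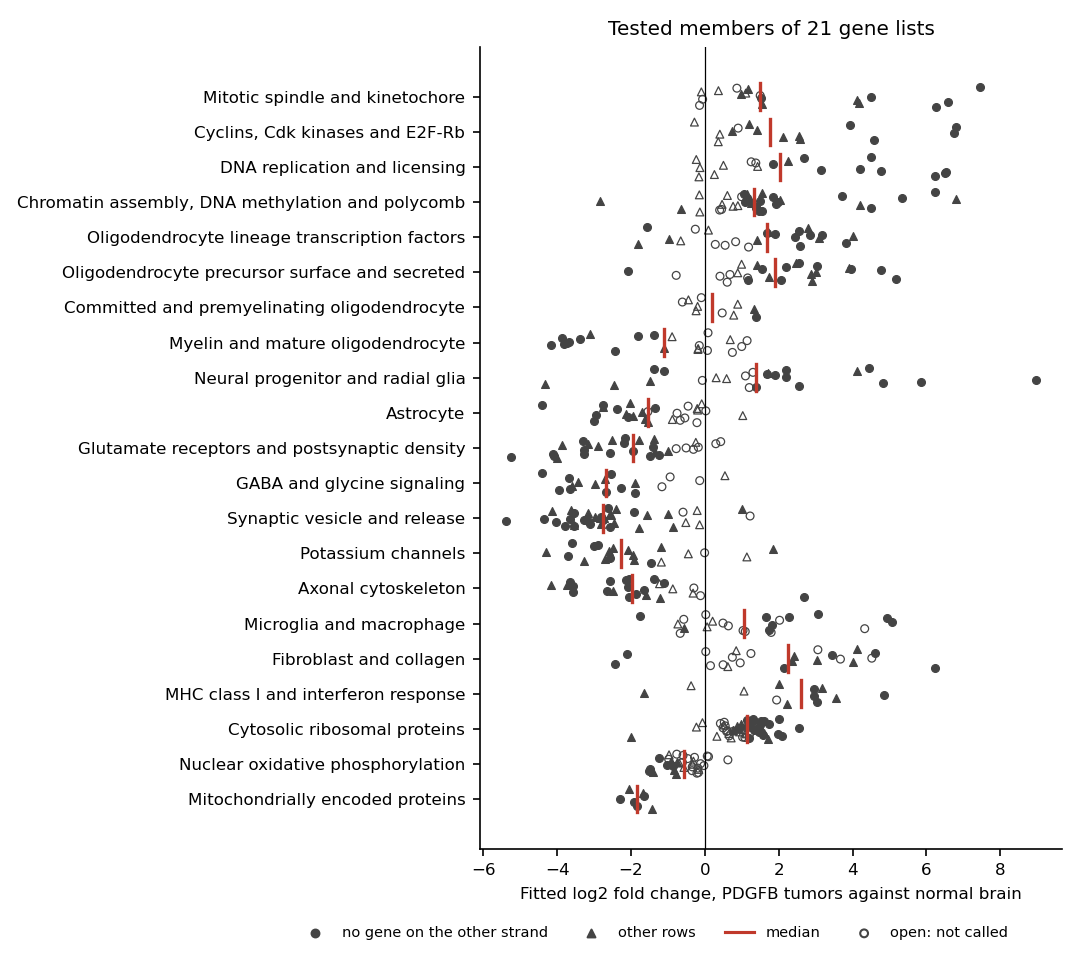
Fitted log2 fold change of the tested members of 21 gene lists, 1 point per gene, filled where called at an adjusted p under 0.05 and open where not, circles for genes with none on the other strand and triangles for other entries, with the median of each list as a line. Medians lie above 0 for the spindle, replication, precursor and ribosomal lists and below 0 for the myelin, astrocyte, synaptic and mitochondrial lists.

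Many genes of the early oligodendrocyte lineage were higher and many of finished myelin lower. Of 29 transcription factors of the lineage 23 were tested, with 13 higher, 3 lower and a median of 1.69, and of 30 precursor surface and secreted genes 24 were tested, with 16 higher, 1 lower and a median of 1.90. Sox10, a master regulator of the lineage, stood at 111.3, 172.4, 146.4, 139.4 and 77.0 CPM in the tumors and 11.7, 21.7 and 9.30 CPM in normal brain, a log2 fold change of 3.18 ± 0.49 SE (adjusted p = 7.22e-05). Olig2, which sets precursor identity, stood at 70.1, 62.1, 68.3, 49.1 and 59.4 CPM against 13.7, 8.69 and 11.2 CPM (2.44 ± 0.43, adjusted p = 2.43e-04). Sox6, which holds cells at the precursor stage, and Myt1, a zinc finger factor of the lineage, were higher too (log2 fold change 2.55 ± 0.61 for Sox6, and a count ratio of 16.4 with a 95% counting interval of 4.38 to 138.4 for Myt1). In none of these 4 genes did a tumor reach down to a normal sample.

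On the cell surface, Cspg4, the NG2 proteoglycan of precursors, stood at 30.5, 34.2, 40.7, 23.8 and 28.9 CPM against 0, 2.17 and 0 CPM. Mmp15, a membrane metalloprotease gene, varied little between tumors, at 118.9, 127.3, 105.7, 115.6 and 102.7 CPM against 3.91, 6.52 and 1.86 CPM (27.2-fold, log2 fold change 4.76 ± 0.58 SE, adjusted p = 8.55e-06). Pcdh15, a protocadherin gene, and Rlbp1, a retinoid-binding protein gene, had count ratios of 18.1 and 9.05 (95% counting intervals 4.84 to 152.2 and 2.95 to 45.2). The next stage, committed and premyelinating oligodendrocytes, had 10 of 21 members tested, 2 higher, 0 lower and a median of 0.19. Fyn, a kinase that starts myelination (opposite an intron), was 2.52-fold higher (adjusted p = 0.00168). Arap2 was called by a small margin (log2 fold change 1.38 ± 0.55, adjusted p = 0.0492). It lost the call without PDGFB tumor 2, 4 or 5, without any 1 of the normal samples and with the block. It also lost it by limma-voom or DESeq2 and against a minimum of 1.5-fold (adjusted p up to 0.143 over all these).

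Mature myelin genes had 21 of 34 members tested, with 0 higher, 11 lower and a median of −1.10, and 9 of the 15 with no gene on the other strand were lower (median −1.82). Mbp, the basic protein that packs myelin, stood at 38.1, 32.6, 58.6, 71.3 and 25.7 CPM in the tumors and 627.3, 480.3 and 695.4 CPM in normal brain, a log2 fold change of −3.73 ± 0.40 SE (adjusted p = 3.15e-06). Mag, a myelin adhesion protein gene, and Mal, a myelin lipid raft protein gene, were lower, with log2 fold changes of −4.16 and −3.81 (adjusted p = 1.37e-04 and 1.15e-05). Ptgds, a prostaglandin synthase gene that oligodendrocytes and meninges express, was 14.5-fold lower. All tumors lay below all normal samples for these 4 genes. Tumor 4 was the highest tumor for Mbp and Mal.

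Neural progenitor and radial glia genes had 23 of 39 members tested, 12 higher, 5 lower and a median of 1.38. Nes, the filament of neural stem cells (chromosome 3, 87971078 to 87980451), varied little between tumors, at 96.0, 135.1, 109.0, 98.2 and 94.7 CPM with no read in normal brain. Vim, another intermediate filament gene, stood at 269.8, 254.7, 237.5, 213.8 and 187.8 CPM against 7.82, 6.52 and 16.7 CPM (21.7-fold, log2 fold change 4.44 ± 0.37 SE, adjusted p = 1.84e-07). Fabp7, a lipid carrier gene of radial glia, stood at 170.7, 128.9, 109.0, 136.2 and 150.9 CPM against 1.95, 10.9 and 1.86 CPM, and Igf2bp2, an RNA-binding protein gene of embryonic tissue, was at least 6.19-fold higher with no read in normal brain (adjusted p = 7.83e-04). The 8030451A03Rik entry, opposite the matrix gene Tnc, had 661.6, 840.1, 426.2, 560.7 and 680.5 CPM against 5.86, 4.35 and 3.72 CPM (log2 fold change 7.03 ± 0.50, adjusted p = 4.16e-08). The summed level of the progenitor list was 1685 to 1858 CPM in the tumors and 1051 to 1134 CPM in normal brain.

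Astrocyte genes had 26 of 36 members tested, with 0 higher, 14 lower and a median of −1.54. Slc1a2 (opposite Gm13872), the main glutamate transporter gene of astrocytes, stood at 29.0, 32.6, 53.7, 118.8 and 44.9 CPM in the tumors and 394.8, 360.8 and 386.8 CPM in normal brain, a log2 fold change of −2.77 ± 0.52 SE (adjusted p = 3.92e-04). Aldoc, a glycolytic enzyme gene, Gja1, the gap junction gene, and Clu, the clusterin gene, were 7.99-fold, 7.72-fold and 4.21-fold lower (adjusted p = 3.55e-04, 5.69e-04 and 1.10e-04). Slc6a11, a GABA transporter gene, was 21.4-fold lower (adjusted p = 9.34e-05). For Gfap, which rises in reactive astrocytes, the test gave 1.03 ± 0.68 on the log2 scale (adjusted p = 0.232), and it was called higher in a fit of the 8 libraries alone. Serpina3n, a protease inhibitor gene known from reactive astrocytes, was higher, with 64.0, 59.0, 86.2, 63.4 and 59.4 CPM against 0, 0 and 1.86 CPM (adjusted p = 1.38e-05). Summed astrocyte levels were 1081, 1118, 1285, 1665 and 1127 CPM in PDGFB tumors 1 to 5 and 3198 to 3455 CPM in normal brain.

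In 8 lists of neuronal genes, 6 to 31 tested members were lower and 0 or 1 higher. With library totals 3 cortical transcription factors, 2 synaptic vesicle genes and 1 GABA and glycine gene were higher. In the fit with TMM factors, 1 axonal gene was the only higher member of these lists with no gene on the other strand. Synaptic vesicle and release genes had 37 of 44 members tested, 1 higher, 31 lower and a median of −2.75, and glutamate receptor and postsynaptic genes 29 of 45, with 0 higher, 22 lower and a median of −1.93. GABA and glycine genes had 17 of 24 tested, 0 higher and 13 lower (median −2.67), potassium channels 20 of 45, 1 higher and 15 lower (−2.27), and sodium and calcium channels 16 of 28, 0 higher and 13 lower (−2.55). Neuropeptide genes had 8 of 27 tested, 1 higher and 6 lower (−2.58), the axonal cytoskeleton 24 of 27, 1 higher and 18 lower (−1.96), and cortical transcription factors 14 of 33, 1 higher and 7 lower (−0.93). Over all genes tested the share lower was 25.1%.

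Among the single genes, Rph3a, a vesicle protein gene, stood at 0, 1.55, 4.88, 6.34 and 0 CPM in the tumors and 93.8, 156.5 and 91.1 CPM in normal brain, a log2 fold change of −5.37 ± 0.66 SE (adjusted p = 9.48e-06). Snap25, part of the machinery that fuses vesicles, had 5, 23, 24, 47 and 17 reads in the tumors against 219, 211 and 266 (adjusted p = 5.86e-04). Camk2a, the kinase of the excitatory synapse, stood at 9.15, 26.4, 30.9, 44.4 and 12.8 CPM against 410.4, 443.4 and 420.2 CPM. Dlg2, a scaffold of the postsynaptic density, was 17.2-fold lower and Cacng3, a partner of AMPA receptors, had a count ratio of 63.0 (95% counting interval 10.5 to 2569). Gad2, which makes GABA, and Gabbr2, which encodes a receptor for it, were 12.9-fold and 15.3-fold lower (adjusted p = 4.62e-04 and 1.06e-04). Tumor 4 was highest and tumor 1 lowest, or tied for it, for Rph3a, Snap25, Camk2a, Gad2 and Gabbr2, while the reads of Cacng3 in the tumors came from tumor 2.

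Channels and axons showed the same order of groups. Kcnq3, a potassium channel subunit gene, was 7.45-fold lower, and Scn2a, a sodium channel gene of axons, 7.51-fold lower (adjusted p = 9.24e-04). Kcnf1, a modulatory potassium channel subunit gene, stood at 1.52, 12.4, 8.13, 22.2 and 0 CPM against 82.1, 160.8 and 109.7 CPM. Nefm (opposite Nefl), both neurofilament genes, stood at 149.4, 319.9, 336.7, 331.0 and 199.0 CPM against 5009, 4851 and 4398 CPM, and the heavy neurofilament gene Nefh was 11.8-fold lower. Kif5a, a motor of axonal transport, stood at 25.9, 37.3, 71.6, 101.4 and 40.1 CPM against 697.7, 680.2 and 589.5 CPM. Dpysl3, which guides growth cones, was the axonal member that was higher, at 74.7, 71.4, 89.5, 117.2 and 102.7 CPM against 13.9 CPM on average in normal brain, a log2 fold change of 2.69 ± 0.37 SE (adjusted p = 2.32e-05). Of transcription factors, Neurod2 and Mef2c, both of cortical excitatory neurons, were 9.70-fold and 6.76-fold lower, and Scrt1, a repressor of neurons, stood at 7.76 to 14.3 CPM against 212.0 to 280.4 CPM. Cck, a peptide of cortical neurons, was 18.1-fold lower (adjusted p = 6.05e-04), a call that DESeq2 did not make (adjusted p = 0.0540).

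Genes that differ between brain regions moved with the groups, and the region of the normal samples is not labelled. Ttr, a carrier protein gene of the choroid plexus, had 0, 2, 0, 0 and 0 reads in the tumors and 75, 44 and 29 in normal brain (count ratio 155.4, 95% counting interval 42.3 to 1295, adjusted p = 4.37e-06). Parpbp, opposite Pmch, the gene of the hypothalamic peptide melanin-concentrating hormone, stood at 7.62, 0, 0, 1.58 and 3.21 CPM against 990.8, 571.6 and 697.3 CPM. The entry Pmch itself, opposite Parpbp, a gene of DNA repair, went the other way, at 137.2, 69.9, 131.8, 82.4 and 139.6 CPM against 9.77, 8.69 and 7.44 CPM (log2 fold change 3.67 ± 0.39 SE, adjusted p = 2.41e-06). A difference of region and a change in the tumors cannot be told apart for such genes. Over the list of 33 genes of deep brain regions 6 were tested, with 1 higher and 4 lower.

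Below the PDGF receptor, some genes that ERK switches on were higher. Of 40 relay genes 29 were tested, 3 higher and 6 lower, with a median of −0.21. With library totals 6 were higher and 5 lower, and the median became 0.03. Mapk3, a kinase gene of the relay, was 2.95-fold lower (adjusted p = 0.00200). Pik3r1, a regulatory subunit of PI3 kinase, was 2.21-fold higher (adjusted p = 0.0122). Of 23 ERK feedback and target genes 20 were tested, with 7 higher (11 without normal brain 3), 3 lower and a median of 0.81. Spry4, a feedback inhibitor gene, stood at 12.2, 10.9, 19.5, 15.8 and 19.3 CPM against 3.91, 4.35 and 0 CPM (log2 fold change 2.45 ± 0.59 SE, adjusted p = 0.00283). Etv4, a transcription factor gene downstream of ERK, stood at 29.0, 76.1, 9.76, 19.0 and 30.5 CPM against 1.95, 8.69 and 5.58 CPM. Epha4, a receptor gene also found in neurons, was 4.93-fold lower (adjusted p = 0.00484). Of 29 p53 target genes 10 were tested, 2 higher and 2 lower: Cdkn1a (opposite AC167363.2), the cell cycle inhibitor p21, was 2.68-fold higher and Phlda3 2.96-fold higher, while Zmat3 and Ddb2 (opposite Acp2) were 1.98-fold and 1.67-fold lower. Phlda3 lost its call when normal brain 1 or 3 was left out and by limma-voom, and Zmat3 without PDGFB tumor 4 or normal brain 3 and with library totals (adjusted p up to 0.0771 and 0.198). Ddb2 lost its call with no low-count filter and against a minimum of 1.5-fold (adjusted p = 0.0559 and 0.163).

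Of 38 growth factor and adhesion receptor genes 22 were tested, 6 higher and 4 lower, a share near that of all genes tested. Itgb1, the common integrin subunit gene, stood at 233.2, 296.6, 247.2, 232.8 and 224.7 CPM against 35.2, 63.0 and 26.0 CPM (log2 fold change 2.58 ± 0.39 SE, adjusted p = 5.47e-05). Cd44, the hyaluronan receptor gene, had no read in normal brain and was at least 5.40-fold higher, and Itgb8 was 3.20-fold higher. Epha5, an ephrin receptor gene of neurons, was 7.75-fold lower (adjusted p = 1.99e-05). Of 30 fibroblast and collagen genes 22 were tested, 9 higher and 2 lower, with a median of 2.25, or 1.10 with members that had no read in normal brain set at their bound. Col11a1, a fibrillar collagen gene, stood at 85.4, 254.7, 94.3, 63.4 and 80.2 CPM against 1.95, 0 and 1.86 CPM (count ratio 87.7, 95% counting interval 24.1 to 726.4). Tumor 2 was far above the other tumors there. Col16a1 was 4.44-fold higher and Lamb1, a laminin chain gene, 4.33-fold lower (adjusted p = 4.80e-04 and 4.50e-04). Tagln2, an actin-binding protein gene, stood at 76.2, 90.1, 97.6, 53.9 and 88.3 CPM against 1.95, 2.17 and 1.86 CPM (adjusted p = 7.31e-07).

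Some immune and vascular genes were higher, most of them at few reads. Of 38 microglia and macrophage genes 22 were tested, 7 higher and 2 lower, with a median of 1.06 (4 higher by limma-voom), while the summed level of all 38 was 961.3 to 1120 CPM in the tumors and 1096 to 1129 CPM in normal brain. Lyz2, a lysozyme of myeloid cells, stood at 30.5, 10.9, 13.01, 19.0 and 27.3 CPM against 0, 2.17 and 9.30 CPM (log2 fold change 2.29 ± 0.60 SE, adjusted p = 0.00473). Gpnmb and Lgals3, genes of activated macrophages, had no read in normal brain and were at least 3.49-fold and 3.18-fold higher, at means of 7.01 ± 4.88 and 6.29 ± 3.85 CPM (SD, n = 5). The Lgals3 call ended in limma-voom (adjusted p = 0.0750), as did that of Spp1, the osteopontin gene (0.00790 in the fit reported here and 0.0637 in limma-voom). Csf1r, the receptor gene that microglia live on (opposite Hmgxb3), was slightly lower (log2 fold change −0.57 ± 0.18, adjusted p = 0.0153), a call that ended without PDGFB tumor 3 or 4, without any 1 of the normal samples and with library totals (adjusted p up to 0.452). Of 31 MHC class I and interferon genes 12 were tested, 8 higher and 1 lower (median 2.60). With no low-count filter 14 were higher, in a fit where 1950 of all 23301 genes were higher. Ifit2, an antiviral gene, had a count ratio of 38.1 (95% counting interval 6.65 to 1524), and H2-D1, an antigen-presenting gene, stood at 21.3, 31.1, 29.3, 14.3 and 73.8 CPM against 3.91, 0 and 7.44 CPM. No member of the 26 lymphocyte and neutrophil genes could be tested, with 15 reads in the 5 tumors and 15 in the 3 normal samples. Of 31 endothelial and pericyte genes 6 were tested, 4 higher and 1 lower. They include Cspg4 again and Cd93, an endothelial receptor gene with 19.8, 29.5, 26.0, 6.34 and 19.3 CPM in the tumors and no read in normal brain.

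Many ribosomal protein genes were higher, and the tested entries of the mitochondrial genome were lower. Of 51 cytosolic ribosomal protein genes 50 were tested, 26 higher and 1 lower, with a median of 1.14, and 21 of the 35 with no gene on the other strand were higher. The count of higher members was 17 without normal brain 3 and 42 in a fit of the 8 libraries alone. Rplp0, of the ribosome stalk, stood at 166.2, 183.2, 180.6, 126.7 and 170.1 CPM against 23.5, 19.6 and 40.9 CPM (log2 fold change 2.54 ± 0.35 SE, adjusted p = 2.67e-05). Genes for ribosome assembly and translation had 14 of 31 tested members higher and 1 lower (median 0.95). Npm1, a chaperone of the nucleolus, was 4.22-fold higher, and the lower member was Eef1a2, the elongation factor form of neurons and muscle, at 47.3 ± 19.6 CPM (SD, n = 5) against 206.4 ± 10.1 CPM (SD, n = 3). Of 47 splicing and RNA-binding genes 42 were tested, 16 higher and 6 lower. Hnrnpa1, a general splicing factor, was 3.69-fold higher, and Rbfox1, Rbfox3 and Celf4, splicing regulators of neurons, were 9.37-fold, 11.7-fold and 8.02-fold lower.

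All 15 tested entries of the mitochondrial genome were lower, with a median log2 fold change of −2.17. They were examined after a table of calls by chromosome had been seen. They comprise 7 of the 13 protein genes, both ribosomal RNAs and 6 transfer RNAs. mt-Nd2 stood at 304.9, 276.4, 326.9, 421.3 and 226.3 CPM in the tumors and 1630, 1358 and 1581 CPM in normal brain, and mt-Nd1 at 506.1, 487.6, 592.1, 538.5 and 455.8 CPM against 2107, 1880 and 1841 CPM. mt-Nd6 (opposite mt-Nd5), which the mitochondrial genome carries on its other strand, held most of these reads, at 14220 ± 2749 CPM (SD, n = 5) against 59240 ± 5304 CPM (SD, n = 3). Summed over the 13 protein genes the level was 16530, 18340, 21170, 22950 and 16480 CPM in PDGFB tumors 1 to 5 and 81320, 74340 and 69880 CPM in normal brain. The groups did not overlap, and tumor 4 was again the tumor closest to normal brain. Of 43 nuclear genes of oxidative phosphorylation 32 were tested, 0 higher and 10 lower, with a median of −0.58. The count of lower members dropped to 5 and 6 without PDGFB tumor 3 or 4, to 4, 3 and 6 without normal brain 1, 2 or 3, and to 3 with no low-count filter. In the fit with no low-count filter 2257 of all 23301 genes were lower. With library totals 5 members were lower, and the median of the list became −0.35. Cox5b, a cytochrome oxidase subunit gene, and Sdha, of complex II, were 2.81-fold and 2.36-fold lower (adjusted p = 0.00133 and 0.00373).

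Glycolysis and hypoxia genes had 3 of 28 tested members higher and 4 lower, or 5 and 3 with library totals. Eno2, the enolase of neurons, was 9.93-fold lower (adjusted p = 1.82e-05) and Ldha, which makes lactate, 2.72-fold higher (adjusted p = 0.00405), at 50.7 CPM in tumor 4 and 83.9 to 122.0 CPM in the others. The median of this list was −0.23 and became 0.01 with library totals. Cholesterol genes had 2 of 11 tested higher and 1 lower, with Sqle, an enzyme of the pathway, at 115.9, 111.8, 122.0, 98.2 and 122.0 CPM against 45.0 to 52.1 CPM in normal brain, a log2 fold change of 1.21 ± 0.22 SE (adjusted p = 2.64e-04). Serine, one-carbon and amino acid genes had 7 of 20 tested higher (11 with library totals) and 1 lower (median 0.73). Phgdh, the first enzyme of serine synthesis, was 3.32-fold higher (adjusted p = 0.00526). Hmox1, the heme oxygenase gene, was higher with 77.7, 74.5, 52.1, 33.3 and 43.3 CPM against 0, 2.17 and 0 CPM (adjusted p = 3.90e-06).

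Some genes with large differences fall in none of the lists. Cdsn, a skin desmosome gene, stood at 86.9, 163.1, 61.8, 88.7 and 78.6 CPM in the tumors with no read in normal brain, Pnlip, a pancreatic lipase gene, at 48.8, 21.7, 34.2, 25.3 and 38.5 CPM, and Hlx, a homeobox gene, at 35.1, 49.7, 22.8, 26.9 and 22.5 CPM. They were at least 48.4-fold, 16.99-fold and 15.9-fold higher (adjusted p = 3.83e-06, 5.01e-04 and 1.56e-04). None of these 3 entries has an annotated gene on the other strand. Gm47629, opposite Tecta, an inner ear matrix gene, was at least 39.4-fold higher. Myocos, opposite the myocilin gene Myoc, had 138.8, 141.3 and 152.5 CPM in normal brain, 1.63 CPM in PDGFB tumor 3 and 0 in the other tumors (adjusted p = 8.75e-08).

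Pairs of entries that overlap on opposite strands were set side by side. In 482 pairs of protein-coding genes both entries were tested, and in 152 both were called, 126 in the same direction and 26 in opposite directions. Over the 482 pairs the log2 fold changes had a Pearson r of 0.47 and a Spearman rho of 0.48, a description across pairs whose members share libraries and a locus. Picked from the 26 after their values were seen, 2 pair a gene of DNA replication with another gene. Chaf1a, which loads histones behind the replication fork, was lower at 1011 against 1577 CPM, and Ubxn6 opposite it higher at 491.1 against 65.8 CPM. The call of Chaf1a ended with no low-count filter and against a minimum of 1.5-fold (adjusted p = 0.0706 and 0.299). Chtf18, of the replication clamp loader, was lower at 64.6 against 575.4 CPM, and Gng13 opposite it higher at 89.6 against 8.53 CPM. Read by entry name alone, these division genes had the direction opposite to the entries Tpx2, Cdk1 and Mcm3, which have no gene on the other strand.

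**Figure D4:**
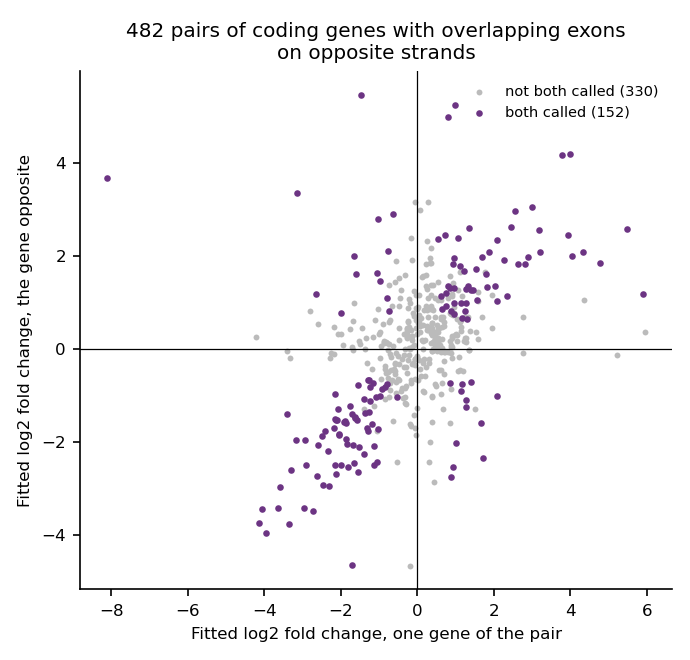
Fitted log2 fold change of one gene (horizontal axis) and of the gene opposite (vertical axis) for 482 pairs of protein-coding genes whose exons overlap on opposite strands, with the 152 pairs in which both were called in purple. Of these, 126 lie in the quadrants of equal sign and 26 in the others.

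The 5 tumors also differed among themselves. The median SD of log2(CPM + 1) over the genes tested was 0.41 among the tumors and 0.32 among the normal samples. Tumor 2 was lowest in the spindle list (841.6 against 1147 to 1451 CPM) and highest in the fibroblast and collagen list (846.3 against 524.3 to 577.7 CPM), and stood apart in Col11a1, Cdsn and Pdgfa. Tumor 4 was highest in the GABA and glycine list (277.2 against 166.9 to 204.3 CPM), the astrocyte list (1665 against 1081 to 1285 CPM) and the mitochondrial protein genes (22950 against 16480 to 21170 CPM). Tumor 5 was highest in the MHC class I and interferon list (619.5 against 294.6 to 399.4 CPM). In each of these lists every tumor stayed on its own side of the 3 normal samples. Among genes with none on the other strand and at least 20 CPM in the tumors, the largest spread was in Ttc8, a ciliary gene, at 22.9, 99.4, 17.9, 1427 and 14.4 CPM against 0, 34.8 and 27.9 CPM. Its call (adjusted p = 0.0319) ended without PDGFB tumor 4, without any 1 of the normal samples, with the block and in limma-voom (adjusted p up to 0.355). Camk2n1, a kinase inhibitor gene of neurons, ran from 4.57 CPM in tumor 1 to 53.9 CPM in tumor 4 against 328.2 to 361.5 CPM in normal brain, and Pgr, the progesterone receptor gene, from 3.05 CPM in tumor 1 to 57.0 CPM in tumor 4 against 177.8 to 221.7 CPM. What part admixed brain tissue has in the spread between tumors was not tested.

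**Figure D5:**
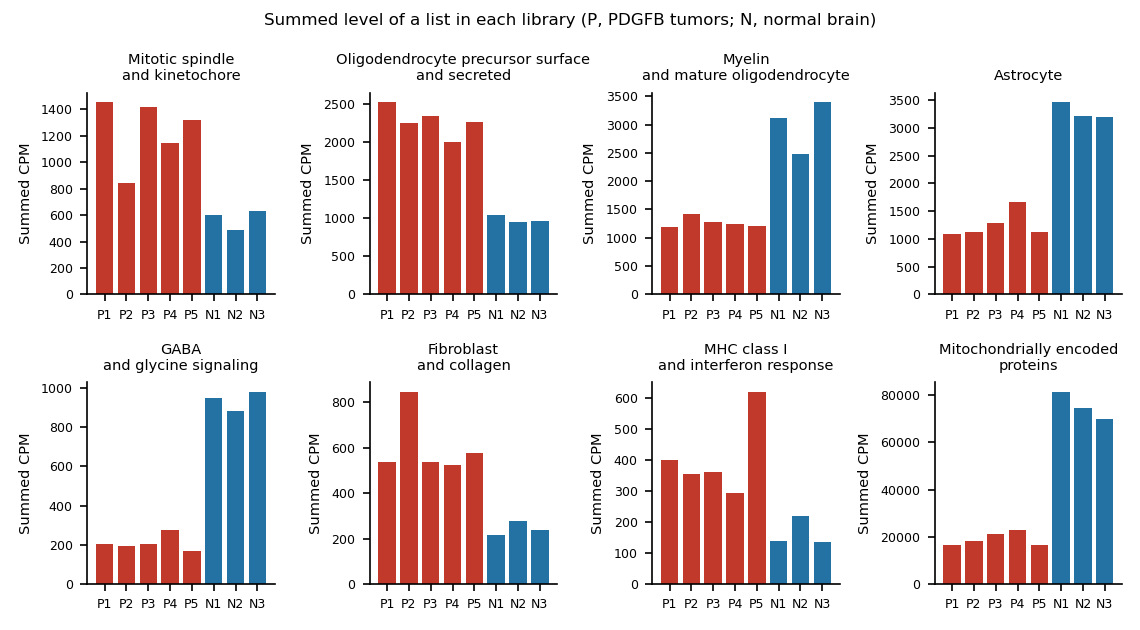
Summed CPM of 8 gene lists in each library, PDGFB tumors 1 to 5 (P1 to P5) and normal brain 1 to 3 (N1 to N3), with every axis from 0. Tumor 2 is lowest of the tumors in the spindle list and highest in the collagen list, tumor 4 is highest in the astrocyte, GABA and mitochondrial lists, and no tumor crosses into the range of normal brain.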

How the data were processed

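RNA was measured by polyA RNA sequencing of TruSeq libraries, per the labels' protocols. The table deposited by the authors holds read counts per gene for 13 libraries on GRCm38. The submitters' processing notes name fastp 0.22.0 and STAR 2.7.9a. The strand setting, the annotation and the counting tool are not given in the sources used here. The 4 summary rows were left out. Groups follow the labels. Entries were placed on GENCODE M21, and a gene on the other strand was noted. Counts were tested with edgeR 4.0.16 quasi-likelihood over all 13 libraries, 1 coefficient per group, two-sided, after filterByExpr (minimum count 10, minimum total 15) and TMM scaling, with Benjamini-Hochberg adjustment and a threshold of 0.05. The SE is the log2 fold change over the root of F. Bounds use 3 reads over the group, and intervals, at 95%, cover counting error only. Limma-voom (3.58.1) and DESeq2 (1.42.0) were alternatives. On simulated data over 6979 genes, with 100 genes changed 4-fold and 100 changed 2-fold, 72% and 11% of the changes were recovered. In the real data a larger share of genes, 45.3% of those tested, was called, so these rates need not hold there.

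The genes and the 42 gene lists were chosen with earlier results of these data known. Single genes were named by a rule: the genes of the design, those with the largest change after 2 SE were taken off, with none or 1 coding gene opposite, up to 4 called members per list, and the 6 with the largest spread between tumors. Marker genes, genes opposite a named entry, the 2 facing pairs of replication genes and mt-Nd6 were added after their values were seen. Promoter sequences are from RefSeq. Some genes are not reported here.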

Additional observations from a re-analysis of the deposited data

Results flagged for a closer look

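For 152 genes named in the text, the tumor farthest from the other 4 was compared with the spread of the group (Dixon's ratio past its critical value for 5 samples), and 16 were picked out: 7 by PDGFB tumor 2, 5 by tumor 4, 2 by tumor 3 and 1 each by tumors 1 and 5. Chance picks out about 1 gene in 20 where values are normally spread, and the genes are not independent. That rate does not hold for genes of few reads. A gene with reads in only 1 tumor, as Ttr, Cacng3 and Myocos, is always picked out. Tumor 2 was above the other tumors for Col11a1 (254.7 CPM against 63.4 to 94.3), Cdsn (163.1 against 61.8 to 88.7) and Pdgfa (74.5 against 24.4 to 36.4). It was below them for Uhrf1 (3.11 CPM against 17.4 to 21.3) and Mcm4 (7.76 against 24.1 to 30.5), which act in DNA replication. It was also the tumor with reads of Ttr (3.11 CPM) and of Cacng3 (1.55 CPM), where the other 4 had none.

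Tumor 4 was above the others for Ttc8 (1427 CPM against 14.4 to 99.4), Slc1a2 (118.8 against 29.0 to 53.7), Mal (15.8 against 1.52 to 3.25), Gabbr2 (11.1 against 0 to 1.63) and Cck (9.50 against 0 to 1.61). The last 4 are genes of normal astrocytes, oligodendrocytes or neurons. Tumor 5 was highest for H2-D1 (73.8 CPM against 14.3 to 31.1), tumor 1 for Topbp1 (38.1 against 15.8 to 19.3), and tumor 3 for Serpina3n (86.2 against 59.0 to 64.0) and Myocos (1.63 CPM, with none in the others). All but Ttc8 and Topbp1 kept their call without that tumor.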

How the results depend on the processing

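Restricting the fit to genes with none on the other strand left 1222 calls, 582 higher and 640 lower, since 2948 genes were then tested. At an adjusted p under 0.01, 988 genes were higher and 1417 lower. The other alternatives moved the counts by less than 1.5 times: leaving out 1 of the 8 samples gave 1383 to 1626 higher and 1513 to 1842 lower. Library sizes over all genes gave 1729 higher and 1804 lower, and TMM factors set before the low-count filter 1834 and 1735. Both were chosen after seeing the data.

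Of the 147 named genes that were called, 131 kept the call in every alternative that gave a value, the stricter threshold and the fold minimum included. Cnp and Cldn11, not called, changed sign: Cnp to 0.0469 on the log2 scale with library totals, and Cldn11 to −0.0389 without PDGFB tumor 2 and −0.25 without normal brain 2, in a range of −0.25 to 0.55 over the samples left out. No paired analysis was possible because the normal samples carry numbers of their own. A replicate block over the same-numbered tumors of both kinds gave 1519 higher and 2006 lower. Most named genes rest on few reads per library, which limits the precision of single levels.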

Other observations

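Genes of the sex chromosomes separated the libraries without regard to the groups. Xist, the RNA of the inactive X chromosome (opposite Tsix), had 25, 0, 25, 1 and 25 reads in PDGFB tumors 1 to 5 and 0, 18 and 41 in the normal samples, titled NBT-M1, NBT-F1 and MBT-F2. The Y-linked genes Ddx3y and Kdm5d had 6 and 3 reads in tumor 2, 3 and 4 in tumor 4 and 5 and 2 in normal brain 1. In the other libraries Ddx3y had none and Kdm5d had 1 read, in tumor 5. Tumors 2 and 4, the tumors that stood apart most often, are thus the pair with almost no Xist reads, and with 2 against 3 tumors whether this bears on their differences was not tested.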
